A study of Mus musculus with 20 samples.

Results

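The MHC class I presentation pathway was examined in the cecum of 20 mice through 10 genes, chosen by name as rows of the deposited count table, out of 19887 genes in all. They were the immunoproteasome subunits Psmb8, Psmb9 and Psmb10, the peptide transporter genes Tap1 and Tap2, the loading factor Tapbp, the light chain B2m, the transactivator Nlrc5, and the classical heavy chains H2-K1 and H2-D1. All 10 were among the 15348 genes that passed the filter on low counts. The C57BL/6 mice had eaten the Total Western Diet (TWD), a rodent diet modelled on American nutrient intakes, for 6 weeks. They then ate the TWD with 0, 2, 5 or 10% raw potato starch (RPS), a resistant starch that reaches the cecum largely undigested, for 3 weeks, with 5 mice per diet. The basal TWD was common to all diets, and the 0% RPS mice served as the control. RNA was taken from sections of the cecum, which hold many cell types, so fewer cells of a type and less RNA per cell cannot be told apart.

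Class I molecules show peptides from inside the cell to CD8 T cells. Proteasomes cut proteins into peptides, and in immune cells or after interferon the constitutive catalytic subunits are replaced by the immunoproteasome subunits. The peptides are pumped into the endoplasmic reticulum by the Tap1 and Tap2 transporter, are loaded with the help of tapasin (Tapbp) onto a heavy chain paired with beta-2 microglobulin (B2m), and travel to the cell surface. Nlrc5 is the transactivator that drives transcription of many of these genes, together with factors that bind a shared promoter module.

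Total counts per mouse were between 14967798 and 42687283. The summed level in CPM (counts per library size, scaled by TMM) of 9 epithelial markers was between 14020 and 21248, and that of 5 smooth muscle markers was between 2196 and 8383, so that both layers of the gut wall were present in every mouse. In 3 libraries, 0% RPS mouse 5, 2% RPS mouse 3 and 5% RPS mouse 4, mitochondrial genes took 13.0, 13.8 and 15.4% of the counts, against 9.0 to 11.5% in the other 17. The results that depend on these libraries are given with and without them, a choice made after seeing the data.

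Promoter stretches of RefSeq (table built on GRCm38.p6, placed on GRCm39 by exact match) were available for 8 members in 9 windows, since H2-K1 has 2 starts, and Tap2 and Nlrc5 were not in the table. The stretches below are shown because B2m, H2-K1 and H2-D1 held the letters TGACG and ATTGG with 20 bases between them, an arrangement found in 27 of 27025 genes (0.10%), each with its windows of 300 bases. The spacing was chosen after these windows were seen. Each is printed 5′ to 3′ on the strand of its gene, with both motifs in capitals. They lie at chr2:121978090-121978119 (plus strand), chr17:34219333-34219362 (minus strand) and chr17:35481969-35481998 (plus strand).

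B2m: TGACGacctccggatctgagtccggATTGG

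H2-K1: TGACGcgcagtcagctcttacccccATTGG

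H2-D1: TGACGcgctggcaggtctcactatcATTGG

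On either strand, TGACG, the core of cyclic AMP response elements, was in a window of 5 of the 8 members and of 23.05% of all genes. CCAAT, the letters of the CCAAT box, was in a window of 6 of the 8 and of 41.06% of all genes. Psmb9 and Tap1 are transcribed away from each other from RefSeq starts with 225 bases between them. Both motifs of that interval are shown on the Tap1 strand because each can be read from either gene, at chr17:34406432-34406461 and chr17:34406296-34406325, with the motif in capitals.

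Tap1 and Psmb9, TGACG: cccagagacaggTGACGacagagggtcctg

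Tap1 and Psmb9, CCAAT: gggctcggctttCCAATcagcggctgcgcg

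GAAA, any 2 bases and GAAA again, the core of interferon-stimulated response elements, was in a window of 1 of the 8 members, B2m, and of 3.99% of all genes. TTCNNNGAA, the core of gamma-activated sites, was in that of 1 of the 8, Psmb8, and of 9.55% of all genes. Those 2 stretches, at chr2:121978019-121978048 and chr17:34417062-34417091, are given with the matched letters in capitals. Some GENCODE transcripts of B2m, Psmb8, Psmb9, Tap1 and H2-D1 start upstream and cover the stretches shown. A match is only a match of letters.

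B2m, interferon-stimulated response element core: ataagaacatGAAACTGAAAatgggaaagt

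Psmb8, gamma-activated site core: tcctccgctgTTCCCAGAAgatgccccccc

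Per kilobase of the canonical transcript, the mean level over the 20 mice was highest for H2-K1, at 538 ± 69.7 CPM per kb (SD), and next for H2-D1, at 314 ± 39.7. B2m (76.4 ± 22.5), Psmb10 (64.8 ± 5.91) and Tapbp (62.1 ± 7.40) followed, with the means of Psmb10 and Tapbp within the wide spread of B2m but that of B2m above theirs. Tap2 (12.3 ± 2.35), Psmb8 (10.6 ± 4.16) and Psmb9 (10.3 ± 2.67) lay within each other's spread. Tap1 was at 6.64 ± 2.20, and Nlrc5 was lowest, at 0.812 ± 0.381. With the length of all exons in place of the canonical transcript, the order of H2-K1 and H2-D1 at the top and of Psmb8, Psmb9, Tap1 and Nlrc5 at the bottom was kept, but B2m (39.4) was below Psmb10 (49.1) and Tapbp (41.9). H2-K1 and H2-D1 are near-identical to other class I genes and how the counting dealt with reads matching more than 1 gene is not stated, so their counts are uncertain. Psmb9 and Tap1 share 743 exonic bases on opposite strands and Tapbp shares 923 exonic bases with Zbtb22 on the same strand, so reads from those bases may be assigned to either gene.

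The immunoproteasome subunit Psmb8 was at 12.8 ± 4.66 CPM (SD, n = 5) with 0% RPS and at 22.95 ± 6.20 with 10% RPS. The 5 mice with 0% RPS were at 11.9, 20.9, 9.60, 11.8 and 9.78 CPM and the 5 with 10% RPS at 24.5, 14.9, 32.1, 21.3 and 21.9. All 5 mice with 10% RPS were above the control median, but mouse 2 of the 0% RPS diet was above mouse 2 of the 10% RPS diet, so the groups overlapped. The log2 fold change was 0.85 ± 0.30 (SE), or 1.80-fold (edgeR adjusted p = 0.138). With 5% RPS the mice were at 14.5, 13.0, 28.2, 27.7 and 18.5 CPM and with 2% RPS at 14.7, 7.93, 27.2, 14.1 and 15.3.

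Psmb9, the second inducible subunit encoded in the class II region, was at 13.1, 15.97, 10.1, 9.57 and 9.07 CPM with 0% RPS and at 16.6, 13.8, 23.4, 14.3 and 16.3 with 10% RPS. Only the 15.97 CPM of control mouse 2 lay within the range of the 10% RPS mice. The log2 fold change was 0.55 ± 0.19, or 1.46-fold (edgeR adjusted p = 0.116). Psmb10, the third inducible subunit, lies on another chromosome. It was at 87.2 ± 4.85 CPM with 0% RPS, 77.8 ± 9.91 with 2%, 90.0 ± 4.62 with 5% and 85.2 ± 6.42 with 10% RPS, and its log2 fold change with 10% RPS was -0.03 ± 0.08.

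Tap1, which forms the peptide transporter with Tap2, was at 15.7, 25.2, 11.5, 16.9 and 11.7 CPM with 0% RPS and at 27.5, 22.3, 33.3, 24.7 and 26.9 with 10% RPS. The control mouse at 25.2 CPM was the one that overlapped. Its log2 fold change was 0.74 ± 0.25, or 1.67-fold (edgeR adjusted p = 0.121). Tap2 was at 42.8, 46.0, 35.7, 41.5 and 46.9 CPM with 0% RPS and at 53.4, 47.0, 64.0, 52.4 and 54.1 with 10% RPS. Every 10% RPS mouse was above every 0% RPS mouse, by 47.0 against 46.9 CPM at the closest. This held for 1 of the 10 members and for 1.68% of the tested genes. The log2 fold change of Tap2 was 0.35 ± 0.15 (edgeR adjusted p = 0.198), and without the 3 libraries of high mitochondrial share it was 0.39 (adjusted p = 0.0385), under 1.5-fold.

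B2m, the light chain of every class I molecule, was at 86.0, 75.7, 59.5, 61.7 and 32.8 CPM with 0% RPS, at 87.3, 110.3, 115, 59.5 and 120.1 with 5% RPS and at 92.0, 105, 113, 84.1 and 89.5 with 10% RPS. Its log2 fold change was 0.62 ± 0.25 with 10% RPS, or 1.53-fold (edgeR adjusted p = 0.184), and 0.64 ± 0.25 with 5% RPS (adjusted p = 0.246). The lowest B2m value of the 0, 2 and 5% RPS diets was in each case in the library with the high mitochondrial share, at 32.8, 37.9 and 59.5 CPM. Without these 3 libraries the log2 fold change with 10% RPS was 0.46 (edgeR adjusted p = 0.0534), and with 5% RPS it was 0.62 (adjusted p = 0.0737). Their part in the result was not tested further.

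The heavy chains and the loading factor differed less. H2-K1 was at 808 ± 69.3 CPM with 0% RPS, 953 ± 147 with 5% and 900 ± 74.3 with 10% RPS, a log2 fold change of 0.16 ± 0.11 with 10% RPS. H2-D1 was at 659 ± 94.0 and 671 ± 58.3 CPM with 0 and 10% RPS, a log2 fold change of 0.03 ± 0.12. Tapbp, which bridges the transporter and the heavy chain, was at 173 ± 4.83 CPM with 0% RPS and 190 ± 14.2 with 10% RPS. In contrast, Tapbp with 5% RPS was at 178.3, 184.6, 229.6, 221.2 and 218.0 CPM, each above the highest control mouse at 177.7, a log2 fold change of 0.26 ± 0.09 (edgeR adjusted p = 0.181). Such a separation with 5% RPS was seen in 1 of the 10 members and in 1.53% of tested genes.

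Nlrc5, the transactivator, was the most variable member, with a CV between 34.9 and 59.0% within diets. The mice were at 5.86, 9.52, 2.66, 4.10 and 2.96 CPM with 0% RPS and at 8.78, 3.74, 11.5, 7.63 and 9.12 with 10% RPS. Its 10% RPS mean was 1.63-fold that of the control, a log2 fold change of 0.70 ± 0.41 (edgeR adjusted p = 0.35), and the groups overlapped.

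**Figure D1:**
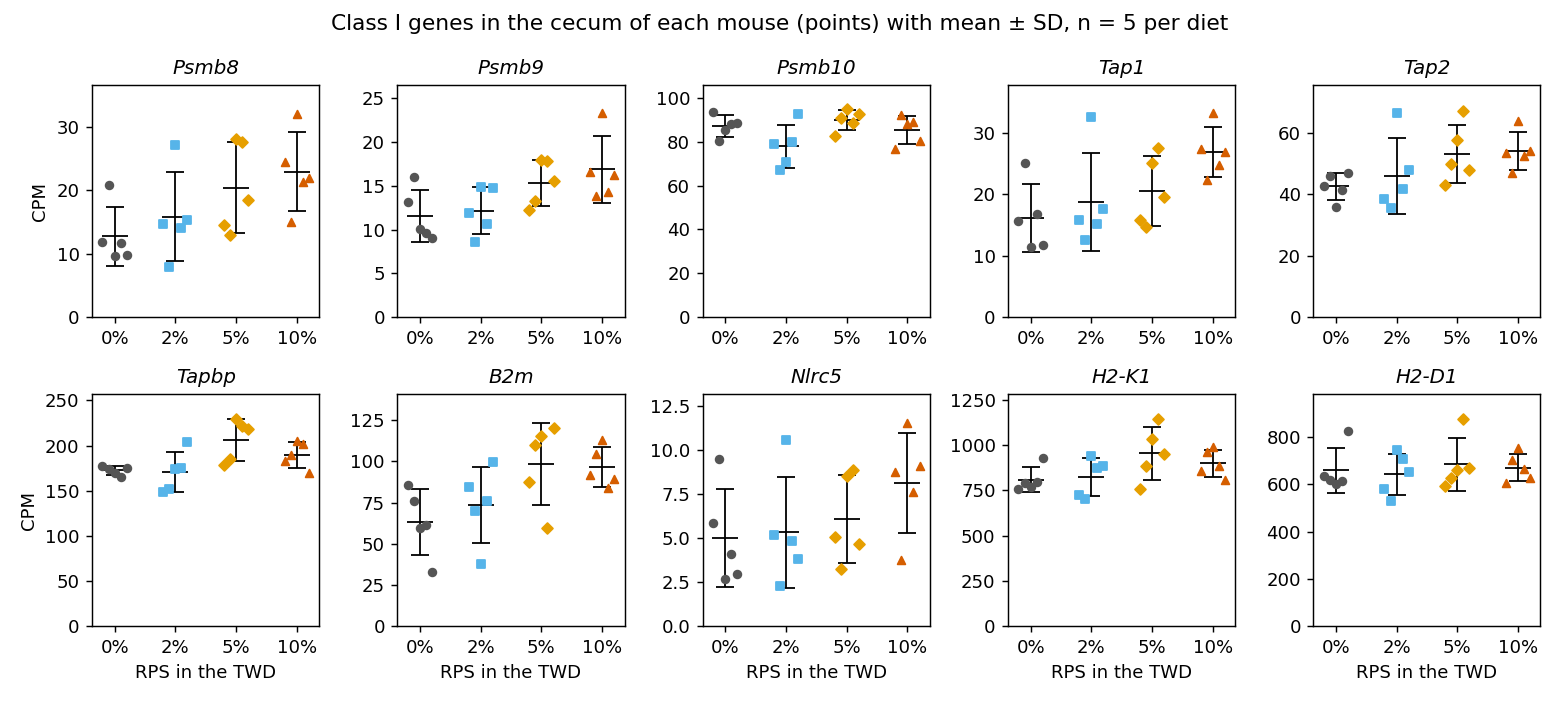
CPM (y axis) of each class I gene by the RPS content of the TWD (x axis), 1 point per mouse, with the mean ± SD of 5 mice as bars. No member was called by edgeR with 10% RPS, and the 0 and 10% RPS mice overlapped in all members but Tap2, with log2 fold changes between -0.03 (Psmb10) and 0.85 (Psmb8).

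In the fit to all 20 mice, 0 of the 10 members were called with 10% RPS (edgeR quasi-likelihood, adjusted p of at most 0.05 and at least 1.5-fold), against 1.04% of the 15348 tested genes. At an unadjusted p under 0.05, 5 of 10 members were higher (Psmb8, Psmb9, Tap1, Tap2 and B2m) and 0 lower, against 9.74% of the tested genes higher. The median log2 fold change of the members was 0.45 and that of all tested genes 0.00. DESeq2's Wald test also called 0 members with 10% RPS. The paper, which used DESeq2 with the same thresholds, lists Psmb8 and Psmb9 as higher in the cecum with 10% RPS. Why its calls differ from those here was not tested. Without control mouse 2, edgeR called 2 members, Psmb9 and Tap1, and with 1 surrogate variable (a hidden factor estimated from the counts) as a covariate it called B2m. With 5% RPS, 0 members were called (0.195% of tested genes), while 6 of 10 were higher at an unadjusted p under 0.05 (6.74% of tested genes), namely Psmb8, Psmb9, Tap2, Tapbp, B2m and H2-K1. DESeq2 also called 0 with 5% RPS, and edgeR with 1 surrogate variable called B2m. The percentages of tested genes are those of the edgeR fit to all 20 mice. The shares called in the alternative fits, with 10 or 5% RPS, are not given. With 2% RPS, 0 members were called by either tool (0.0% of tested genes by edgeR) and 0 were higher or lower at an unadjusted p under 0.05, against 2.58% of tested genes higher, and 0 members had all 5 mice above the controls, against 0.417% of tested genes. The lowest adjusted p among the members was 0.852 with 2% RPS. Between 10 and 5% RPS, 0 of 10 members were called by either tool (0.0% of tested genes by edgeR). There 0 members had an unadjusted p under 0.05 in edgeR, with the share of tested genes not given. The comparisons with 0% RPS share the control mice, and that of 10 with 5% RPS shares its mice with them.

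A linear trend over the RPS percentage called 0 of the 10 members in edgeR, against 1.11% of tested genes. DESeq2's Wald test called 3 (Psmb8, Psmb9 and Tap1). The share of tested genes that DESeq2 called for the trend is not given, so its 3 members cannot be set against it. In edgeR, 5 members were higher with dose at an unadjusted p under 0.05, against 9.37% of tested genes. The slope was 0.08 ± 0.03 on the log2 scale per 1% of RPS for Psmb8, 0.06 ± 0.02 for Psmb9 and 0.07 ± 0.02 for Tap1, with edgeR adjusted p of 0.122, 0.0829 and 0.0988. Without 2% RPS mouse 3, 4 members passed (Psmb8, Psmb9, Tap1 and Tap2), and 1, Psmb9, passed without control mouse 2 or without 10% RPS mouse 4. Without the 3 libraries of high mitochondrial share, 2 passed, Tap1 and Tap2. The shares of tested genes that passed in the fits with mice left out are not given either.

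**Figure D2:**
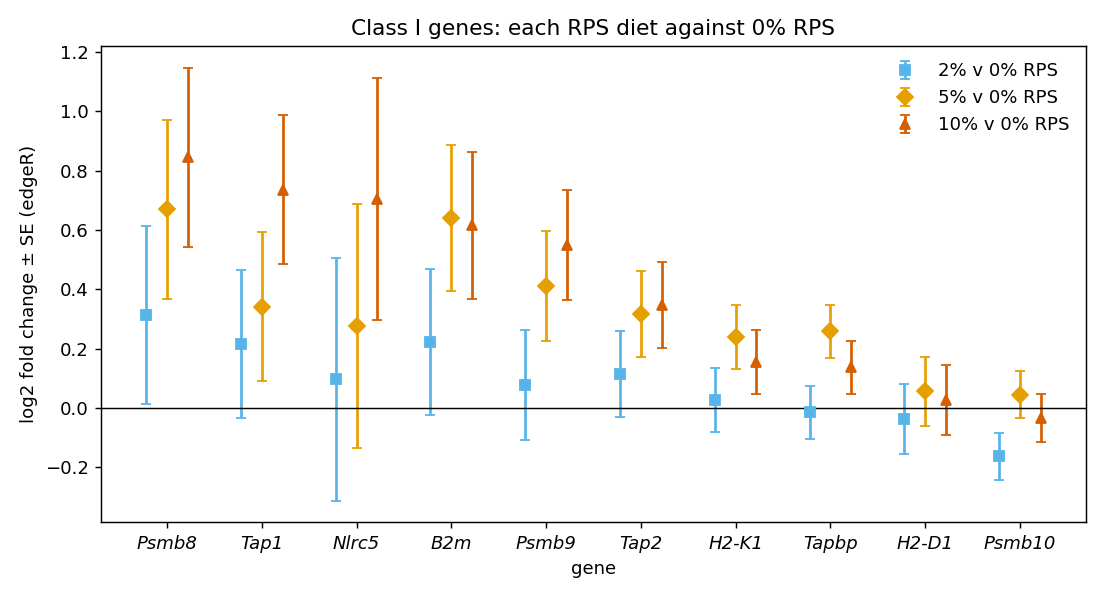
Log2 fold change of each class I gene against 0% RPS (y axis, edgeR, bars are SE) with 2, 5 and 10% RPS, genes ordered by the 10% value. Psmb8 is highest at 0.85 and Psmb10 lowest at -0.03 with 10% RPS.

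Since each inducible subunit takes the place of 1 constitutive subunit, their ratios were compared within mice, per length of the canonical transcript. The constitutive subunits Psmb5, Psmb6 and Psmb7 had log2 fold changes of -0.18, -0.18 and -0.20 with 10% RPS. Psmb8 to Psmb5 had a median of 0.0934 with 0% RPS and 0.212 with 10% RPS, a difference of 1.04 in the mean log2 ratio (two-sided exact permutation p = 0.0238, adjusted over the 9 ratios p = 0.161). The mice with 0% RPS were between 0.0861 and 0.209 and those with 10% RPS between 0.155 and 0.349, so they overlapped. Psmb9 to Psmb6 differed by 0.71 (exact permutation p = 0.0476, adjusted p = 0.161) and Psmb10 to Psmb7 by 0.17 (exact permutation p = 0.0714, adjusted p = 0.161). The smallest p that 5 against 5 mice can give is 0.00794. The size of a ratio, but not a difference between diets, depends on the transcript length used. Without 0% RPS mouse 2, the adjusted exact permutation p was 0.0476 for Psmb8 to Psmb5 and for Psmb9 to Psmb6 with 10% RPS and for Psmb8 to Psmb5 with 5% RPS. That mouse was the only control that overlapped in these ratios. Leaving it out therefore fixed full separation and the smallest p possible, and nothing is concluded from these p.

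**Figure D3:**
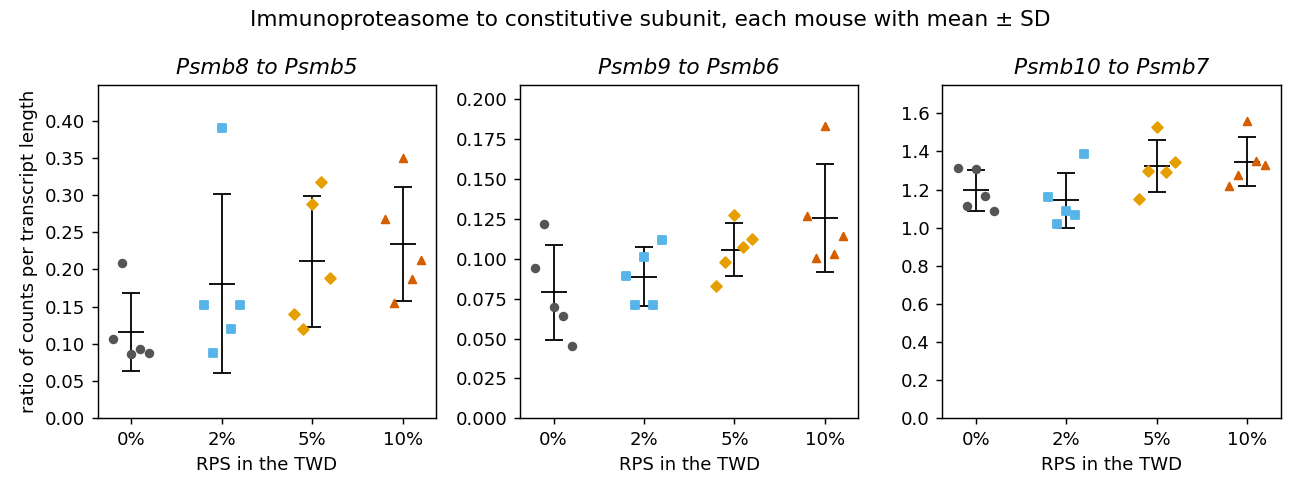
Ratio of counts per transcript length of each inducible subunit to the constitutive subunit it replaces (y axis) by RPS in the TWD (x axis), 1 point per mouse with mean ± SD. The 10% RPS mice sat between 0.155 and 0.349 for Psmb8 to Psmb5, and 0% RPS mouse 2, at 0.209, lay within that range.

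The rest of the pathway was described by counts. Of all tested genes, 50.9% had a higher and 49.1% a lower estimate with 10% RPS, and 9.74% were higher and 9.75% lower at an unadjusted p under 0.05. Of 5 proteasome activators and maturation factors, Psme3 was at -0.30 ± 0.12, and the median was -0.03. Of 11 other 20S subunits, 10 had a lower estimate with 10% RPS and 1 was lower at an unadjusted p under 0.05, Psmb2 at -0.25, with a median of -0.12. The trimming and loading genes had a median of -0.10 and 0 of 5 at an unadjusted p under 0.05. Of 16 tested class I and class I-like molecules, 12 had a higher estimate, and at an unadjusted p under 0.05 4 were higher and 1 lower, with a median of 0.14. The 4 were H2-Q4 at 0.47 ± 0.15, H2-T22 at 0.38 ± 0.12, H2-M3 at 0.59 ± 0.22 and H2-T24 at 1.01 ± 0.42, and H2-Q10 was at -0.93 ± 0.29. Among 18 regulators, 10 had a higher and 8 a lower estimate, with a median of 0.03, and at an unadjusted p under 0.05 4 were higher and 2 lower. Ciita, the transactivator of class II genes, was at 1.43 ± 0.53, Irf8 at 0.55 ± 0.21, Irf1, an interferon response factor, at 0.41 ± 0.15 and Rfx5 at 0.36 ± 0.14. Nfyc and Rfxank were at -0.28 and -0.19. Of the interferons, only Ifng, Ifnb1 and Ifnl3 were examined, and these were too low to test. Ifng had 0 to 4 counts per mouse, with a count in 10 of 20 mice, Ifnb1 had 0 to 2, with a count in 1 mouse, and Ifnl3 had 0 in all 20. Of 11 tested genes of interferon receptors, their kinases and related signals, 8 had a higher and 3 a lower estimate, with a median of 0.11. At an unadjusted p under 0.05 2 were higher and 1 lower. The kinase Jak2 was at 0.27 ± 0.09, the receptor chain Il10rb at -0.15 ± 0.07 and Tnf, an inflammatory cytokine that is not an interferon, at 1.34 ± 0.61. In these lists 0 genes were called by edgeR.

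Psmb8, Tap1 and Nlrc5 were higher in the 8 mice with the most leukocyte marker RNA than in the other 12. The summed CPM of 7 pan-leukocyte markers (Ptprc, Coro1a, Laptm5, Cd53, Cd52, Lcp1 and Vav1) was between 73.4 and 327 with 0% RPS, 90.5 and 429 with 2%, 108 and 254 with 5% and 98.8 and 425 with 10% RPS, with medians of 98.8, 95.6, 162 and 349. None of the 7 was at 0 in all mice of a diet, 7 of 7 had a higher estimate with 10% RPS (50.9% of tested genes) and 6 had an unadjusted p under 0.05 (9.74% higher), but 0 were called (1.04%). The mice fell into 8 at 243 CPM or more, of which 4 were fed 10% RPS and 1 was control mouse 2, and 12 at 162 CPM or less, of which 4 were controls and 1 was fed 10% RPS. Across those 12 mice Psmb8 was between 7.93 and 18.5 CPM and across the 8 between 20.9 and 32.1, Tap1 between 11.5 and 22.3 and between 24.7 and 33.3, and Nlrc5 between 2.26 and 5.86 and between 7.63 and 11.5. The 12 and the 8 did not overlap in these 3 of the 10 members, and 2.39% of the tested genes were likewise higher in all of the 8. Psmb9 (8.63 to 15.5 and 14.3 to 23.4 CPM) and Tap2 (35.6 to 49.7 and 46.0 to 67.1) overlapped. B2m, in contrast, was between 32.8 and 120.1 in the 12 and between 37.9 and 115 in the 8, and H2-D1 between 529 and 825 and between 607 and 875. Because of the gap no pooled correlation was computed, and within the 12 and the 8 mice the lowest adjusted permutation p of 20 correlations with the leukocyte level was 0.361. In the 12 and the 8 mice, Pearson's r was 0.49 and -0.06 for Psmb8 (Spearman's rho 0.32 and 0.0), 0.35 and 0.62 for Tap1 (rho 0.32 and 0.52) and 0.62 and 0.56 for Nlrc5 (rho 0.51 and 0.60). Without the 2 mice farthest from the median leukocyte level, these r were 0.38 and 0.75 for Psmb8, 0.19 and 0.87 for Tap1 and 0.56 and 0.69 for Nlrc5. In the 8 mice, leaving out 2 also moved r from 0.03 to 0.92 for Tap2, from -0.71 to 0.04 for Tapbp, from -0.63 to -0.19 for Psmb10, from -0.52 to 0.70 for H2-K1, from -0.18 to 0.79 for H2-D1 and from -0.02 to 0.42 for Psmb9. The r of these genes and of Psmb8 in the 8 mice thus rested on those 2 mice. They were 5% RPS mice 3 and 4, at 243 and 254 CPM of leukocyte markers, the only 5% RPS mice of the 8. Mouse 4 is a library of high mitochondrial share, and the parts of diet and library in these r were not tested.

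With the leukocyte level as a covariate, the edgeR log2 fold change with 10% RPS was 0.24 for Psmb8, 0.26 for Psmb9, 0.27 for Tap1, 0.09 for Tap2 and -0.18 for Nlrc5, with adjusted p between 0.376 and 0.762, while that of B2m was 0.74 (adjusted p = 0.191). The epithelial marker level was lower where Psmb9 was higher, with Pearson's r of -0.72 and Spearman's rho of -0.76 after diet means were subtracted (permutation p = 0.00135 and 0.00054, adjusted over 10 genes 0.0135 and 0.0054, n = 20), and r was -0.79 without the 2 mice farthest from the median epithelial level. Of the 10 relations with the epithelial level, Psmb8, Tap1 and Nlrc5 also had an adjusted p of Pearson's r under 0.05, with r of -0.60, -0.58 and -0.57, and those of the other members lay between -0.41 and 0.24. The adjusted p of Spearman's rho was 0.063 for Nlrc5. Without the 3 libraries of high mitochondrial share, r was -0.67 for Psmb9, -0.55 for Psmb8, -0.53 for Tap1 and -0.50 for Nlrc5. Within the 12 and the 8 mice on either side of the leukocyte gap, with diet means not subtracted, r with the epithelial level was -0.54 and -0.77 for Psmb9, -0.25 and -0.64 for Psmb8, -0.15 and -0.44 for Tap1 and -0.02 and -0.50 for Nlrc5, with no test. The leukocyte level and the diet moved together in these mice, and the part of either was not tested. The summed markers of other cell types overlapped between 0 and 10% RPS. Those of B and plasma cells were at 55.7 to 471 and 272 to 525 CPM (medians 176 and 427). Of these 6 markers, 6 had a higher estimate (50.9% of tested genes), with a median log2 fold change of 1.87, and 0 had an unadjusted p under 0.05. Those of macrophages and dendritic cells were at 64.0 to 102 and 79.7 to 105 (medians 75.5 and 97.0), also with 6 of 6 higher and 0 at an unadjusted p under 0.05. Those of T and NK cells were at 20.8 to 44.0 and 15.1 to 40.01 (medians 22.7 and 32.2), with 5 of 10 at a lower estimate and 0 at an unadjusted p under 0.05. Smooth muscle markers were at 2196 to 5331 and 3613 to 5690 (medians 2843 and 4975), with 3 of 5 higher at an unadjusted p under 0.05. Epithelial markers were at 15848 to 20288 and 14020 to 19265 (medians 17526 and 15499), with 8 of 9 at a lower estimate and 3 lower at an unadjusted p under 0.05.

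**Figure D4:**
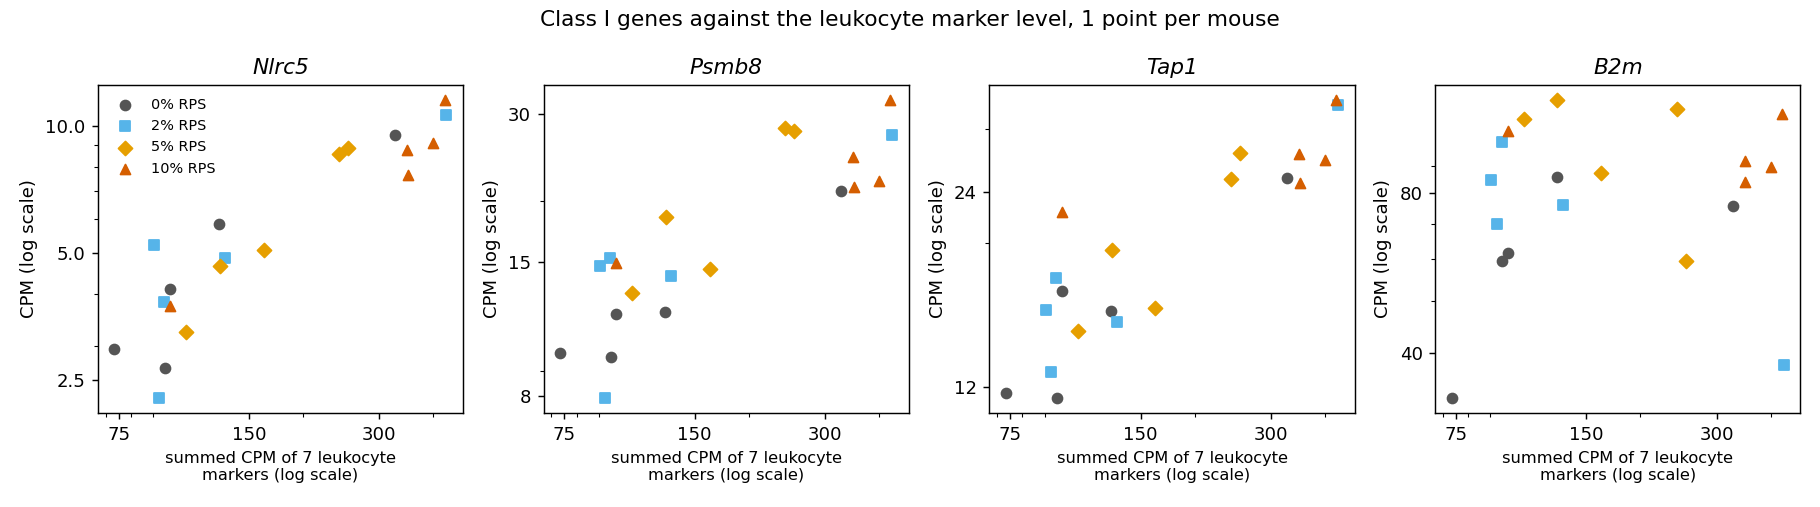
CPM of Nlrc5, Psmb8, Tap1 and B2m (y axis, log scale) against the summed CPM of 7 leukocyte markers (x axis, log scale), 1 point per mouse, coloured by diet. The first 3 genes are higher in the 8 mice to the right of the gap, and B2m overlaps.

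The members also differed in which of them moved together. After the diet means were subtracted, the 10 pairs among Psmb8, Psmb9, Tap1, Tap2 and Nlrc5 had Pearson's r between 0.702 and 0.945 and Spearman's rho between 0.668 and 0.923 over 20 mice (highest adjusted permutation p = 0.00453 and 0.0131, over 45 pairs). These r include the gap in the leukocyte level, and within the 12 and 8 mice on either side of it they were between 0.25 and 0.85 and between 0.40 and 0.87, with diet means not subtracted. Without the 3 libraries of high mitochondrial share, r over the 17 mice was between 0.71 and 0.93. Some pairs outside this set had a like r over 20 mice. Tap2 was at 0.76 with H2-K1 and 0.73 with H2-D1 (adjusted permutation p = 0.00373 and 0.00438). Tapbp was at 0.77 with H2-K1 (adjusted permutation p = 0.0044), and the lowest r of all 45 pairs was -0.56. H2-K1 and H2-D1 were at r = 0.90 (permutation p = 1e-05, the smallest that can be given) and rho = 0.91 (permutation p = 2e-05). Their r was 0.89 without the 2 mice farthest from the median and 0.84 without the 3 libraries. The relation of B2m to H2-D1 changed sign with the 3 libraries. Over 20 mice r was -0.56 (permutation p = 0.0277, adjusted 0.0694), while rho was -0.16 (permutation p = 0.537, adjusted 0.654). Without the 2 mice farthest from the median r was -0.27, and over the 17 other mice it was 0.57, with no test. For B2m and H2-K1 r was -0.38 over 20 mice and 0.58 over the 17, and for B2m and Tap2 -0.46 and 0.65.

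B2m and the heavy chains were at opposite ends of their diets in the 3 libraries with a high mitochondrial share. Where B2m was at 32.8, 37.9 and 59.5 CPM, the lowest of each diet, H2-D1 was at 825, 743 and 875 CPM, the highest of each diet, and H2-K1 was at 928, 941 and 1142, also the highest of each diet. Among the other 17 mice the r of the mitochondrial share was 0.54 for B2m (permutation p = 0.0611, adjusted 0.305 over 10 genes) and 0.22 for H2-D1 (permutation p = 0.531). The part of RNA quality in these values was not tested.

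**Figure D5:**
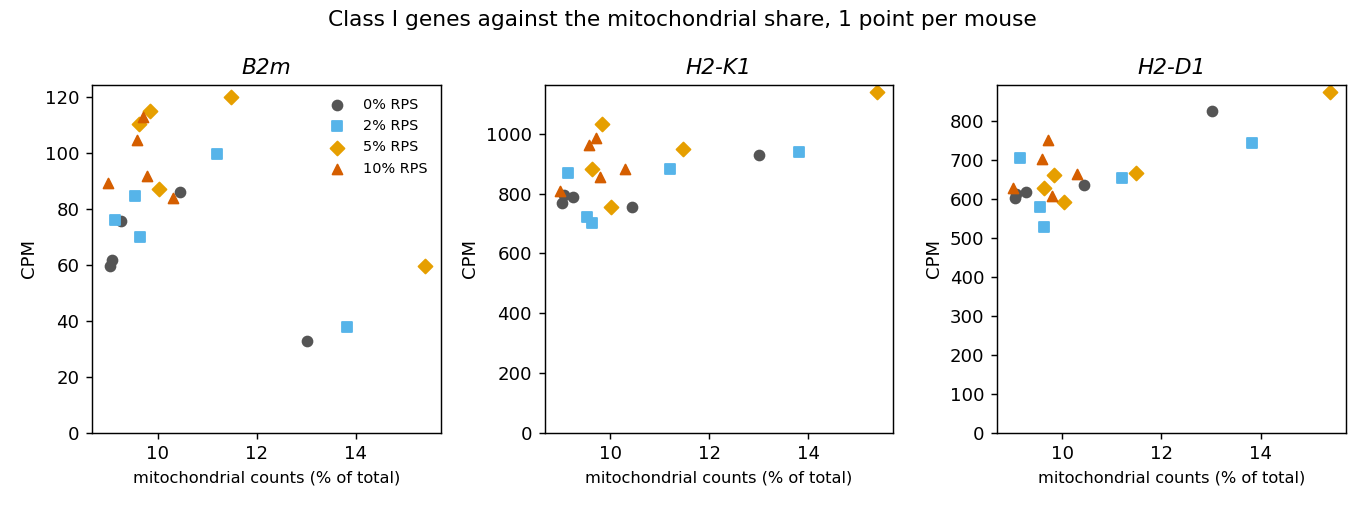
CPM of B2m, H2-K1 and H2-D1 (y axis) against the percentage of counts on mitochondrial genes (x axis), 1 point per mouse, coloured by diet. The 3 mice to the right hold the lowest B2m of their diets, 32.8, 37.9 and 59.5 CPM, and the highest H2-D1.

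Over all 20 mice, the genes outside the list whose level was most like the mean standardized level of the members were Cd274 (Spearman's rho 0.91), Fstl3 (0.89), Ppp1r18 (0.89), Tcirg1 (0.88) and H2-Q4 (0.88). Cd274 encodes the checkpoint ligand PD-L1. With diet means subtracted they were Ogfr (0.89), Septin9 (0.87), Samhd1 (0.85), Tcirg1 (0.85) and Col15a1 (0.82), so Tcirg1 was in both lists. These are descriptions over the same 20 mice, with 1 library each.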

How the data were processed

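The authors deposited raw read counts per gene, not normalized, for 20 cecum samples. They had removed low-quality and ambiguous reads from stranded poly(A) libraries and then mapped and counted them with the CLC Genomics Workbench on GRCm39. The annotation release, the strand setting and the handling of multi-mapping reads were not given in the sources used here. Gene identifiers were matched to GENCODE mouse release 39. The filter filterByExpr (minimum count 10, minimum total 15) kept 15348 genes. TMM scaling and the robust quasi-likelihood test of edgeR 4.0.16, on all 20 mice in 4 diets, were run in R 4.3.3 after a test on simulated data. Alternatives used DESeq2 1.42.0 and sva 3.50.0. The SE was taken from the fold change and the F statistic. Log2 CPM and the ratios had a prior count of 2, and ratios were compared over 252 assignments. Correlations used 100000 permutations, within diets where diet means were subtracted, and all 40320 orders for 8 mice. Mice were grouped by the labels and numbered 1 to 5 per diet, and these numbers pair no mice. The members, lists and alternatives were chosen with earlier results of these data known. Named genes were the members, listed genes with an unadjusted p under 0.05 with 10% RPS or compared with a member, and the 5 genes most alike. Both the SE and the SD include the spread between mice.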

Additional observations from a re-analysis of the deposited data

Results flagged for a closer look

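In groups of 5 mice, 8 values lay apart from the other 4 of their diet, with a gap to the nearest above 0.71 of the range, among 52 groups examined, and chance gives about 1 in 20. In control mouse 2, Psmb8 was at 20.9 CPM and Psmb8 to Psmb5 at 0.209, each the highest of the diet, in the control mouse with the highest leukocyte marker level, 327 CPM. In 2% RPS mouse 3, Tap1 was at 32.7 CPM and Psmb8 to Psmb5 at 0.391, in the mouse with the highest leukocyte marker level of all, 429 CPM, which is also a library with a high mitochondrial share. In 10% RPS mouse 3, Psmb9 was at 23.4 CPM. In control mouse 5, H2-K1 was at 928 CPM and H2-D1 at 825 CPM, and in 5% RPS mouse 4 H2-D1 was at 875 CPM, both in libraries with a high mitochondrial share.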

How the results depend on the processing

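No paired analysis was possible because the mice of different diets share no pairing. Members called with 10% RPS went from 0 to 1 (B2m) with 1 surrogate variable, and ranged from 0 to 2 with 1 mouse left out, the 2 (Psmb9 and Tap1) without control mouse 2. With 5% RPS the surrogate variable called 1 (B2m). The trend called 3 by DESeq2's Wald test and 4 with 1 surrogate variable, and by alternatives chosen after seeing the data 2 without the 3 libraries of high mitochondrial share and 3 with that share as a covariate. It called 0 to 4 with 1 mouse left out, the 4 without 2% RPS mouse 3, and 1 each without control mouse 2 and without 10% RPS mouse 4. The shares of all tested genes called in these alternative fits are not given, so the counts of members cannot be set against them. With 1 mouse left out, the difference in log2 ratio with 10% RPS was 0.88 to 1.27 for Psmb8 to Psmb5 and 0.53 to 0.89 for Psmb9 to Psmb6, and with 5% RPS it was 0.67 to 1.08 for Psmb8 to Psmb5. These 3 passed an adjusted exact permutation p of 0.05 without control mouse 2. It was the only control that overlapped in them, so leaving it out fixed that outcome.

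The following log2 fold changes changed sign, and the cause was not tested. With the library size only, Psmb10 with 10% RPS was 0.0535, and with 2% RPS Tapbp was 0.0222 and H2-D1 0.0029. With the leukocyte level as a covariate, Psmb10, Nlrc5 and H2-D1 with 10% RPS were 0.039, -0.18 and -0.0286, and Nlrc5 was -0.0184 with 5% and -0.0135 with 2% RPS. With 1 surrogate variable, Nlrc5 with 2% RPS was -0.11. Without the 3 libraries, Nlrc5 with 5% RPS was -0.0453, and with 2% RPS Psmb8, Psmb9, Tap1, Tap2, Nlrc5 and H2-D1 were -0.0513, -0.0766, -0.17, -0.015, -0.45 and 0.0024, and the log2 ratio of Psmb9 to Psmb6 was -0.0063. Also without them, the correlations of B2m with H2-D1, H2-K1 and Tap2 changed sign, to 0.571, 0.578 and 0.651. With the mitochondrial share as a covariate, H2-D1 with 5% RPS was -0.0389, and Nlrc5 and H2-K1 with 2% RPS were -0.0668 and -0.0059. With 1 mouse left out, the range with 10% RPS was -0.0644 to 0.0028 for Psmb10 and -0.0153 to 0.13 for H2-D1, and with 5% RPS -0.0532 to 0.16 for H2-D1. With 2% RPS it was -0.0048 to 0.22 for Psmb9, -0.0805 to 0.43 for Tap1, -0.0584 to 0.20 for Tap2, -0.083 to 0.0352 for Tapbp, -0.31 to 0.47 for Nlrc5, -0.0282 to 0.0933 for H2-K1 and -0.0988 to 0.0684 for H2-D1. At 65 to 365 counts per mouse, Nlrc5 was the member with the least depth.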
